A study of Mus musculus with 18 samples.

Results

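The genes described here were 365 mouse zinc finger genes, the protein-coding genes of the GENCODE M21 annotation of GRCm38 whose symbol is Zfp followed by a number. They were picked by a rule on the symbol from 21938 protein-coding genes outside the mitochondrial genome. The rule uses no measured value, but it was set with earlier results of these data known. For each gene the promoter, 2 kb on both sides of any annotated transcription start site (TSS), and the gene body outside those windows were scored separately. Promoters were scored for all 365 genes and bodies for the 361 that extend beyond their promoter windows, against 19520 bodies over all protein-coding genes.

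Most genes of this family encode C2H2 zinc finger proteins, in which tandem fingers read successive bases of DNA. Many carry an N-terminal KRAB domain that recruits KAP1 (Trim28) and, through it, histone methyltransferases that silence transposons and imprinted regions. KDM2A is a histone demethylase whose CXXC domain binds unmethylated CpG dinucleotides, which concentrate in the CpG islands of promoters, and it removes methyl groups from H3K36me2, dimethylated lysine 36 of histone H3.

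A translation of the annotated coding sequences contained a KRAB A box in 216 members and none in 149, and 209 members had 10 or more C2H2 fingers, 143 had 1 to 9 and 13 had 0. The members without a C2H2 finger included Zfp36, whose fingers are of a different kind and bind RNA, so the symbol covers more than 1 protein family. A computed CpG island overlapped the promoter of 230 members, and of 12950 of the 21938 genes in all. Of the members, 197 lay in 31 clusters of at least 3 members with gaps of up to 250 kb between neighbouring genes.

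The measurements were ChIP-seq peak lists of cultured splenic B cells from C57BL/6 mice that carried Mir155, the gene of the microRNA miR-155 (WT), or lacked it in all cells (KO). B cells had been enriched by removing cells positive for CD43, Ter119 or CD4, and both genotypes were cultured for 2 days at 1% oxygen with anti-CD40 at 1 µg/ml, an F(ab')2 fragment of anti-IgM at 5 µg/ml and IL-4 at 4 ng/ml. Chromatin was crosslinked with EGS and formaldehyde and precipitated with an antibody to KDM2A or to H3K36me2. The 18 samples were 3 libraries per genotype for each antibody and 6 input libraries, which were not analysed on their own, and in every group replicate 1 was male and replicates 2 and 3 were female.

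The 12 lists held 15387 to 29105 peaks for KDM2A and 37447 to 106720 for H3K36me2. Every KDM2A list of KO was shorter than every list of WT. The male KO list of H3K36me2 stood apart from the female KO lists, with 106720 peaks against 37447 and 45180, so H3K36me2 shares and coverages are given for each library. The lists carry no read counts, so library depth is unknown and a shorter list cannot be told apart from a shallower library. Peak lists hold no expression, so the labelled cell type could not be checked against marker genes, and in a bulk culture fewer cells with a peak cannot be told apart from a weaker peak in every cell. In all series of 6 values below the order is WT replicates 1, 2 and 3 and then KO replicates 1, 2 and 3.

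Promoter sequences are shown first for 10 members chosen to span the patterns described below. They are the 300 bases from 250 before to 50 after a RefSeq start site on GRCm38.p6, 5′ to 3′ on the strand of the gene, and capitals mark each CG, the dinucleotide that the CXXC domain of KDM2A binds. RefSeq promoters were matched to 300 of the 365 members, and where a gene had several the one with the most CG is used. The first sequences belong to Zfp36 at chr7:28379179-28379478 (minus strand), the member with the highest KDM2A coverage, and Zfp629 at chr7:127614818-127615117 (minus strand), which lies in the cluster with the highest KDM2A coverage.

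Zfp36: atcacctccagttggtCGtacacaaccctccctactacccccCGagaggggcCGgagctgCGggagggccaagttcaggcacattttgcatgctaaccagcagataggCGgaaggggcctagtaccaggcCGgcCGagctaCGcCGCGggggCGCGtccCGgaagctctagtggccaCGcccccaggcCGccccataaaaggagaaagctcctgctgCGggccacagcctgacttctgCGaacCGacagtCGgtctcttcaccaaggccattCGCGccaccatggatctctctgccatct
Zfp629: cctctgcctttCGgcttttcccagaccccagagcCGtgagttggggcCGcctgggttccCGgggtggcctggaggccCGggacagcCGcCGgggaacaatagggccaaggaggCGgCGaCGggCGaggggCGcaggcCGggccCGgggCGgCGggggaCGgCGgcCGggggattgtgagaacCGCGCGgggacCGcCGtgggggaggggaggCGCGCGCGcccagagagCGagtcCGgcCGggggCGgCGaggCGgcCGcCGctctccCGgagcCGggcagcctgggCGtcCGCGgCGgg

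Zfp36 holds 21 CG and Zfp629 holds 42. Next are Zfp748 at chr13:67553103-67553402 and Zfp423 at chr8:87959546-87959845 (both minus strand), which had a KDM2A promoter peak in the 3 WT lists alone, and Zfp2 at chr11:50916127-50916426 (minus strand), which had one in the 3 KO lists alone. Zfp600 at chr4:146156577-146156876 (plus strand) had the largest KDM2A promoter difference towards higher KO among members whose genotypes did not overlap.

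Zfp748: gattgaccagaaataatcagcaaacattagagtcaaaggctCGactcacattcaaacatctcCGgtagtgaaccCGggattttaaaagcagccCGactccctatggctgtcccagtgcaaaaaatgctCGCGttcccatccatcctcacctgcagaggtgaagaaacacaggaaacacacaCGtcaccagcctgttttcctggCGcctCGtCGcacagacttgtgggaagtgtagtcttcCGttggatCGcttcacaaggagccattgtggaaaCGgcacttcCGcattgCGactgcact
Zfp423: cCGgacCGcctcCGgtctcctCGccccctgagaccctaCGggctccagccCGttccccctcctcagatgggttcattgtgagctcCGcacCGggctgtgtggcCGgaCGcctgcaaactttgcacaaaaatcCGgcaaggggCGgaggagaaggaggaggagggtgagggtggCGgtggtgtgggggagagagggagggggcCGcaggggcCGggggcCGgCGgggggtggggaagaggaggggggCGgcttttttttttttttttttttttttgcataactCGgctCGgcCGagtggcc
Zfp2: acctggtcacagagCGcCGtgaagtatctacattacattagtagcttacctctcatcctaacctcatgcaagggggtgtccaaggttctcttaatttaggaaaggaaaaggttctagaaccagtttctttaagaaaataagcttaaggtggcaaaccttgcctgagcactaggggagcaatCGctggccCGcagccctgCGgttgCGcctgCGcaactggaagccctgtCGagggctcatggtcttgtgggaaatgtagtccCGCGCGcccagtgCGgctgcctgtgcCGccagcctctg
Zfp600: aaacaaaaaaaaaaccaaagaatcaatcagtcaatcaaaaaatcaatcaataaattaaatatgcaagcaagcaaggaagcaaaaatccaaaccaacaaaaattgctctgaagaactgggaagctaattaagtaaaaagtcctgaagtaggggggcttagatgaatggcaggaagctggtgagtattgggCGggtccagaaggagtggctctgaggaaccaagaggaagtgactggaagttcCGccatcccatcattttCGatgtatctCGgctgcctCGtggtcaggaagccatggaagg

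These hold 15, 21, 13 and 5 CG. Zfp938 at chr10:82241231-82241530 (minus strand) had the largest H3K36me2 promoter difference among members whose genotypes did not overlap. It had no KDM2A promoter peak in any library, and its promoter holds 5 CG.

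Zfp938: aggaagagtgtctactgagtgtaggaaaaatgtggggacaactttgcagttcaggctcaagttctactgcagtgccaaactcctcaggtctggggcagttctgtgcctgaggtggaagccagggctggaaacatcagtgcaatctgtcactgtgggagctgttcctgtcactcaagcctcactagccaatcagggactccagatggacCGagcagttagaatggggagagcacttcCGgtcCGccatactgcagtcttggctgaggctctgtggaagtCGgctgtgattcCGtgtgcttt

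The last 3 are neighbours in a chromosome 2 cluster without a promoter peak of either antibody: Zfp968 at chr2:175372186-175372485 (plus strand), Zfp965 at chr2:175469775-175470074 (plus strand) and Zfp966 at chr2:175931051-175931350 (minus strand).

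Zfp968: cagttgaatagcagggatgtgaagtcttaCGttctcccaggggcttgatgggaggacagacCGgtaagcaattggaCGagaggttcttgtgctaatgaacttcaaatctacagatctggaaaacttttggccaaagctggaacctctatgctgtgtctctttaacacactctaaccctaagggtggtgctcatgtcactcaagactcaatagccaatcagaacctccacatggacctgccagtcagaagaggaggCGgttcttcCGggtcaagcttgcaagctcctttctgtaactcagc
Zfp965: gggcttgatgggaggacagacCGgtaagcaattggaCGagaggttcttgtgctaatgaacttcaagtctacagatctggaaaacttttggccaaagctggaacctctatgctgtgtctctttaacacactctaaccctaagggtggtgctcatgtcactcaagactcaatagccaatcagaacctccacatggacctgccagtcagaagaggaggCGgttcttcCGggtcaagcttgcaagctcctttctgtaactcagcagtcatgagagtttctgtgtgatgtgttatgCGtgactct
Zfp966: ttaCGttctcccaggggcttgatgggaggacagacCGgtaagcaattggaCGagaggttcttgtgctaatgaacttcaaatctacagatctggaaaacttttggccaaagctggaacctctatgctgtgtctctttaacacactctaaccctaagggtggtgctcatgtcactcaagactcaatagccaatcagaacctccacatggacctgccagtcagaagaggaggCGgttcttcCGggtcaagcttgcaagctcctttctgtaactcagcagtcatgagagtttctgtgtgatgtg

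The sequences of these 3 paralogs are shifted copies of each other. Zfp968 and Zfp966 were identical over all 274 overlapping bases, and Zfp965 differed from them by 1 base over 260 and 286 bases.

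Over the 300 matched members the number of CG ranged from 1 to 59 with a median of 14, against a median of 15 over the 16239 other protein-coding genes with a RefSeq promoter. The motif searched was the 2 letters CG, which read the same on both strands. All 300 members held at least 1, whereas 787 of the other genes held 0. The members were fewer at both ends: 92.3% held 5 or more against 73.8% of the other genes, and 11.7% held 30 or more against 17.8%. Members with an island held a median of 19 and those without held 8.

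KDM2A peaks sat on the promoters of about 1 in 2 members. WT libraries had a KDM2A promoter peak at 58.6, 55.1 and 52.6% of members and KO libraries at 41.9, 47.1 and 55.1%, or 55.4% ± 3.03 and 48.0% ± 6.62 (SD, n = 3 each). KO replicate 3 equalled WT replicate 2, so the genotypes overlapped. Over all protein-coding genes the shares were 48.3, 46.8 and 47.1% in WT and 39.8, 38.6 and 45.2% in KO. The difference between genotypes for the members, −7.40 percentage points, turned to 1.10 when the same number of strongest peaks was taken from each list.

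The position of the peaks was sharp. Among the 230 members with an island, KDM2A coverage was highest 100 bp downstream of the start site in all 6 libraries, where 64.4, 55.6 and 55.9% of promoters in WT and 46.1, 45.1 and 52.5% in KO lay under a peak. Beyond 4 kb it fell to between 1.24 and 3.81%. H3K36me2 had the opposite shape at these members. It covered 8.21, 7.87 and 6.58% of positions within 200 bp of the start in WT, and was highest at −1500, −900 and −1300 bp from the start, with 18.6, 22.5 and 21.2%. Islands of other genes had KDM2A maxima at the same 100 bp, with 53.8, 52.0 and 51.9% in WT.

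**Figure D1:**
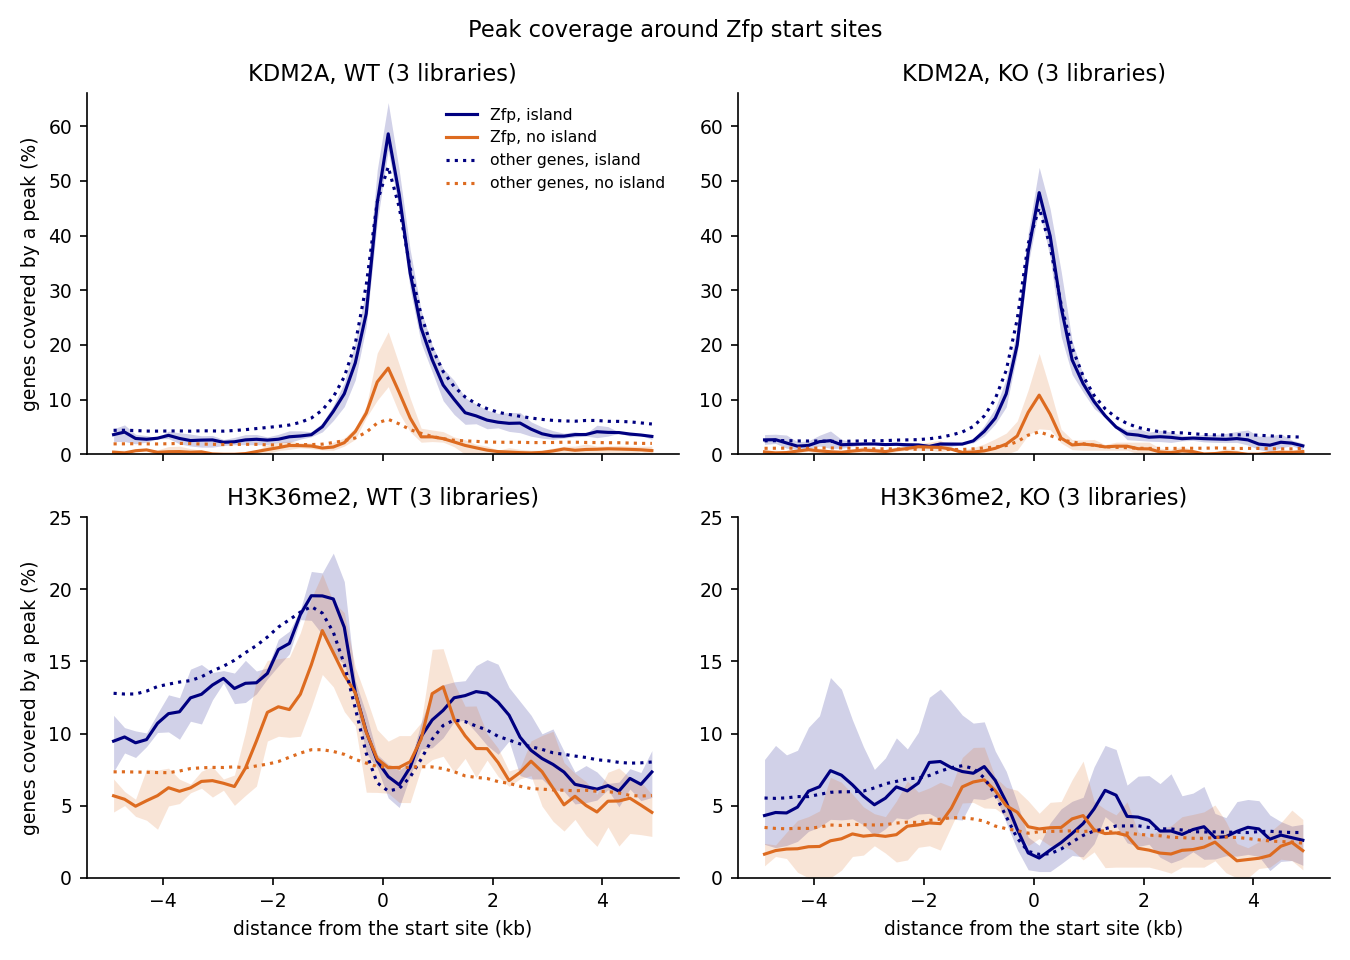
Lines give the mean over 3 libraries and shading the range over them (shading for Zfp genes alone) of the share of genes covered by a peak (%, vertical axes, with different scales for the 2 antibodies) against distance from the start site in kb, for Zfp and other genes with and without an island. KDM2A at Zfp genes with an island reaches 64.4% in WT replicate 1 just downstream of the start, where H3K36me2 dips.

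Island and KRAB box together divided the members. The 131 members without a KRAB box and with an island had a KDM2A promoter peak at 76.3, 77.9 and 75.6% in WT and 70.2, 72.5 and 79.4% in KO. The 99 KRAB members with an island had one at 73.7, 65.7 and 62.6% in WT and 50.5, 49.5 and 61.6% in KO, so that each KO library lay below each WT library in this class. The 12720 other genes with an island stood at 71.1, 70.1 and 70.2% in WT and 61.4, 59.5 and 68.2% in KO, also without overlap.

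Members without an island carried KDM2A more often than other genes without an island in 5 of 6 libraries. These classes were not matched for CG count, which is taken up below. The 117 KRAB members without an island had a peak at 30.8, 24.8 and 23.9% in WT and 5.98, 21.4 and 26.5% in KO. The male KO library was lowest, and the female KO libraries overlapped WT. The 8853 other genes without an island had a peak at 15.1, 12.97 and 13.8% in WT and 8.66, 8.09 and 11.8% in KO. The 18 members with neither a KRAB box nor an island stood at 27.8, 27.8 and 16.7% in WT and 22.2, 16.7 and 27.8% in KO.

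**Figure D2:**
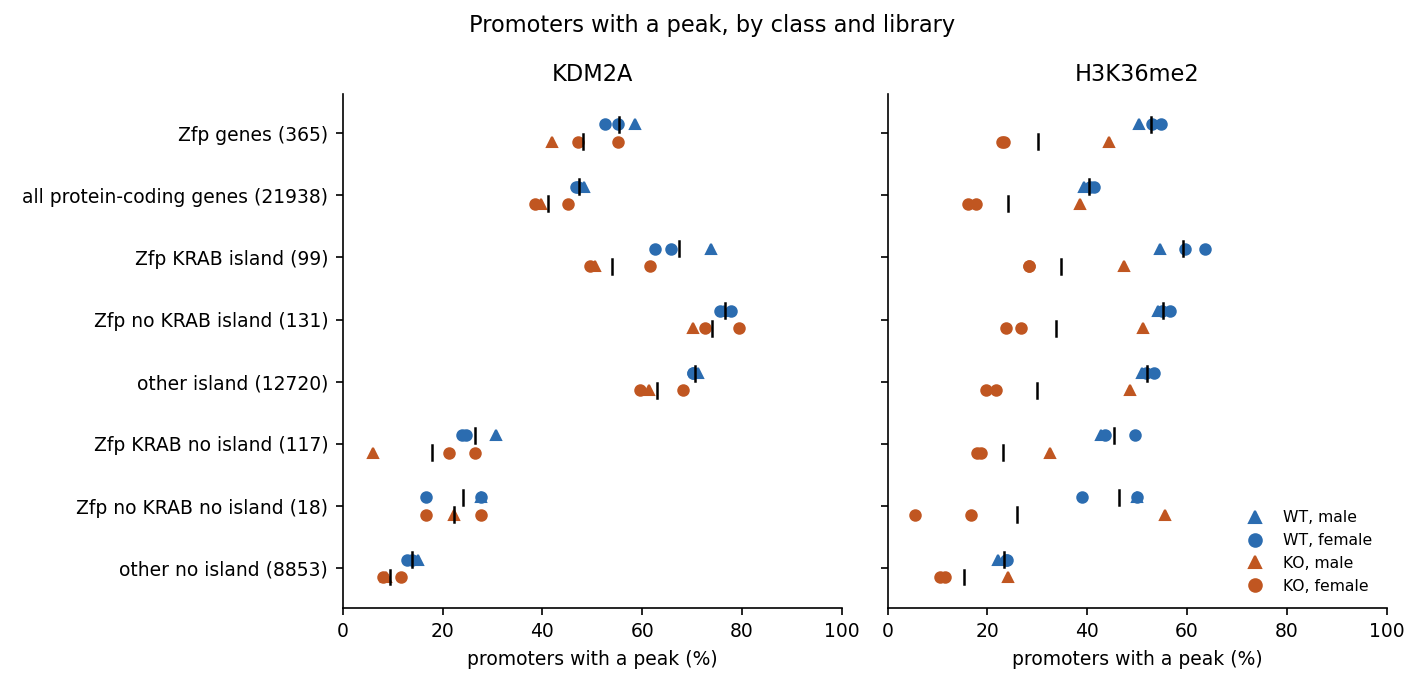
Each point is 1 library (triangles male, circles female) and each vertical tick the mean of 3, showing promoters with a peak (%) by class, with the number of genes in brackets. For KDM2A, KRAB members with an island lie at 62.6 to 73.7% (WT) and 49.5 to 61.6% (KO), and the male KO library lies apart from the female ones for H3K36me2.

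The number of CG in the 300 base promoter ordered KDM2A occupancy within the members. With 0 to 4 CG the mean share with a KDM2A promoter peak over 3 libraries was 11.6% in WT and 10.1% in KO (23 members), with 10 to 19 CG it was 57.4 and 44.7% (111 members), and with 30 or more it was 91.4 and 89.5% (35 members). Other genes rose from 10.2 to 78.4% in WT over the same range, with 58.0% in WT and 49.2% in KO at 10 to 19 CG. At 5 to 9 CG members stood at 35.7% in WT and other genes at 28.7%. The 79 matched members with a KDM2A promoter peak in all 6 libraries held a median of 24 CG, and the 63 with a peak in none held 8. H3K36me2 was flatter, from 33.3% at 0 to 4 CG to 63.8% at 30 or more in WT members. At 0 to 4 CG other genes had an H3K36me2 promoter peak in 17.3, 18.6 and 18.25% in WT, a mean of 18.1%, and in 18.55, 8.74 and 9.86% in KO.

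**Figure D3:**
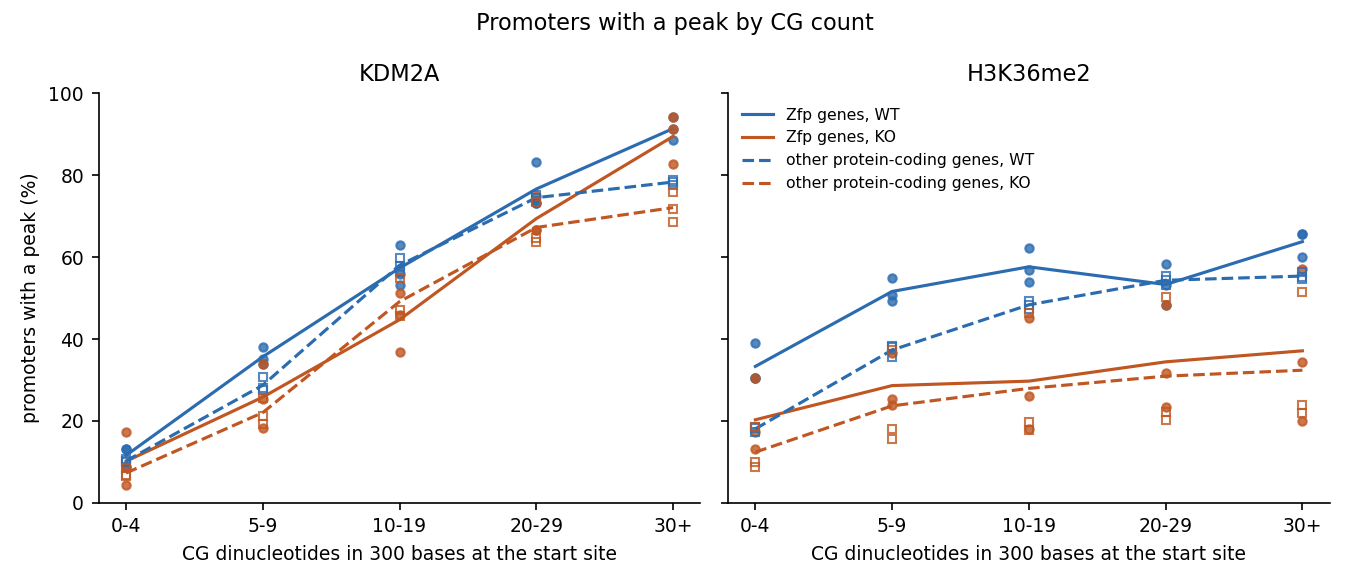
Lines join the mean of 3 libraries and points are single libraries (filled for Zfp genes, open squares for other protein-coding genes), showing promoters with a peak (%) against the number of CG in 300 bases at the start site. For KDM2A in WT the Zfp line climbs from 11.6 to 91.4%, and for H3K36me2 in WT it starts at 33.3% against 18.1% for other genes.

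The member with the most KDM2A was Zfp36, the mRNA decay factor tristetraprolin (gene at chr7:28376784-28380253). Peaks covered 100, 79.7 and 100% of its promoter in WT and 100, 78.4 and 100% in KO. The part of the gene outside its promoter windows was fully covered in all 6 libraries. The genotypes overlapped, with a limma difference of −0.43 ± 8.28 percentage points (SE) and an adjusted p = 0.988. Next in mean coverage over 6 libraries came Zfp513 at 70.3%, Zfp526 at 61.9%, Zfp296 at 61.4% and Zfp668 at 46.8%. Zfp526 shares its promoter window with Dedd2, so the peak belongs to both genes.

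Several members with known roles had a KDM2A promoter peak in all 6 libraries. Zfp91, a ubiquitin ligase, had 26.4, 25.5 and 26.4% in WT and 24.4, 26.5 and 21.8% in KO. Zfp318, which is needed for IgD expression in B cells, had 10.3, 18.1 and 16.9% in WT and 14.1, 7.38 and 6.67% in KO. The genotypes overlapped at both. Zfp335, a transcription factor needed for T cell maturation, had 40.2, 34.9 and 45.3% in WT and 20.6, 69.3 and 44.9% in KO, so its KO libraries lay on both sides of WT. Zfp143, an activator that binds many promoters, had 23.4, 11.3 and 23.5% in WT and 14.02, 15.7 and 15.8% in KO.

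At the other end, 80 members had no KDM2A promoter peak in any library, or 21.9%, where 39.2% of all genes had none. They included Zfp42 (Rex1), a marker of pluripotent stem cells, Zfp57, which maintains imprints, and Zfp462 and Zfp521, the latter an antagonist of the B cell factor EBF1. A peak in all 6 libraries was found at 96 members, 26.3%, beside 26.4% of all genes.

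The comparison of KO with WT asked whether loss of miR-155 changes KDM2A at these promoters. No gene passed an adjusted p of 0.05 in limma, so the share called over the 11131 genes tested was 0%. At an unadjusted p under 0.05 limma counted 935 genes, or 8.40%, and 16 of the 235 members tested, or 6.81%, of which 14 were lower and 2 higher in KO. Without KO replicate 2 the counts were 542 genes and 12 members, without KO replicate 1 they were 621 and 14, and with equal numbers of strongest peaks 603 and 7 of 203. The balance of directions depended on the scale and the libraries: with coverage relative to the library mean 10 members were higher and 4 lower, without KO replicate 1 there were 7 of each, and in the female libraries alone 7 were higher and 10 lower. The median difference was −2.58 percentage points over the members and −3.37 over all genes tested, and the lowest adjusted p of a member was 0.501. The other 130 members had a mean coverage under 2% and were not tested.

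Genes whose libraries did not overlap were mostly lower in KO, among the members as among all genes. Every KO library lay above every WT library at 4 members, 1.10% beside 0.666% of all genes, and below at 25 members, 6.85% beside 7.03%. A peak in the 3 WT libraries and no KO library was found at 2 members beside 0.793% of all genes, and the reverse at 1 member beside 0.105%. These shares of members were close to those of all genes or rest on 4 genes or fewer.

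The 4 members higher in KO were Zfp600, Zfp260, Zfp746 and Zfp2. Zfp600, in a KRAB cluster on chromosome 4, had 0, 0 and 1.27% in WT and 3.38, 10.1 and 21.1% in KO. Its promoter window is made of repeated sequence, with 92.6% of its 32-mers found elsewhere in the genome. Zfp260 had 9.97, 3.13 and 3.83% in WT and 12.6, 18.2 and 17.7% in KO. Zfp746, known as PARIS, a repressor of the mitochondrial regulator PGC-1α, had 3.70, 7.03 and 5.72% in WT and 8.44, 9.30 and 13.5% in KO. Zfp2 had no peak in WT and 3.50, 4.12 and 3.37% in KO. These 4 were picked because all their KO libraries lay above WT. With 3 libraries per genotype, that choice by itself fixes the two-sided exact permutation test at p = 0.1, its lower limit. The exact test therefore says nothing further about these 4 members. Their limma adjusted p ran from 0.564 to 0.619 for the 3 that were tested.

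Among members whose genotypes did not overlap, the largest differences towards lower KDM2A were at Zfp593, Zfp689 and Zfp629. Zfp593 (chr4:134243289-134245592) had 41.3, 56.8 and 40.6% in WT and 0, 0 and 29.99% in KO, a difference of −36.2 ± 10.5 percentage points (SE, limma adjusted p = 0.501), and it shares its promoter window with 2 other genes. Zfp689 had 36.1, 15.7 and 65.5% in WT and 14.6, 0 and 13.99% in KO. Zfp629 had 39.1, 40.1 and 28.7% in WT and 11.5, 18.5 and 9.45% in KO, a difference of −22.8 ± 6.71 (SE, limma adjusted p = 0.501). Its promoter, printed above, has the most CG of the 10 sequences. WT and KO libraries did not overlap at any of these, and none passed the adjusted test.

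The promoters with a peak in WT alone had low coverage. Zfp748, in the KRAB cluster of chromosome 13, had 10.7, 6.46 and 5.11% in WT. Zfp423, a cofactor of EBF1 and of BMP signalling, had 1.03, 0.167 and 1.37%. Neither had a peak in KO, and peaks of this size rest on short stretches of the window.

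The height of the peaks that were present in all 6 libraries was compared next. Fold over background, the height of a peak as listed in the files, centred within each library, differed by a median of 0.02 on the log2 scale over 96 members and 0.00 over all 5786 genes with a value in every library. Centring sets the overall level to about 0, so these medians say only how members moved relative to other peaks. Without centring the medians were −0.05 over the members and −0.06 over all genes, limma called 0 genes, and 344 genes and 4 members were at an unadjusted p under 0.05, the 4 members all lower in KO. With centring limma called 0% of these genes, with 299 at an unadjusted p under 0.05 and 1 of them a member, Zfp473, at 0.24 ± 0.11 (SE, limma adjusted p = 0.914). Without WT replicate 2 these counts were 324 genes and 5 members, 3 higher and 2 lower. Without WT replicate 1 they were 334 and 2, both lower, and without KO replicate 3 they were 279 and 3, 2 of them higher. Zfp36 peaks had a fold of 4.56, 4.56 and 4.89 (WT) and 3.80, 3.81 and 4.604 (KO). KDM2A peaks on member promoters had a median width of 626 to 729 bp in WT and 585 to 656 bp in KO, shorter in each library than the 670 to 901 bp over all promoter peaks.

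**Figure D4:**
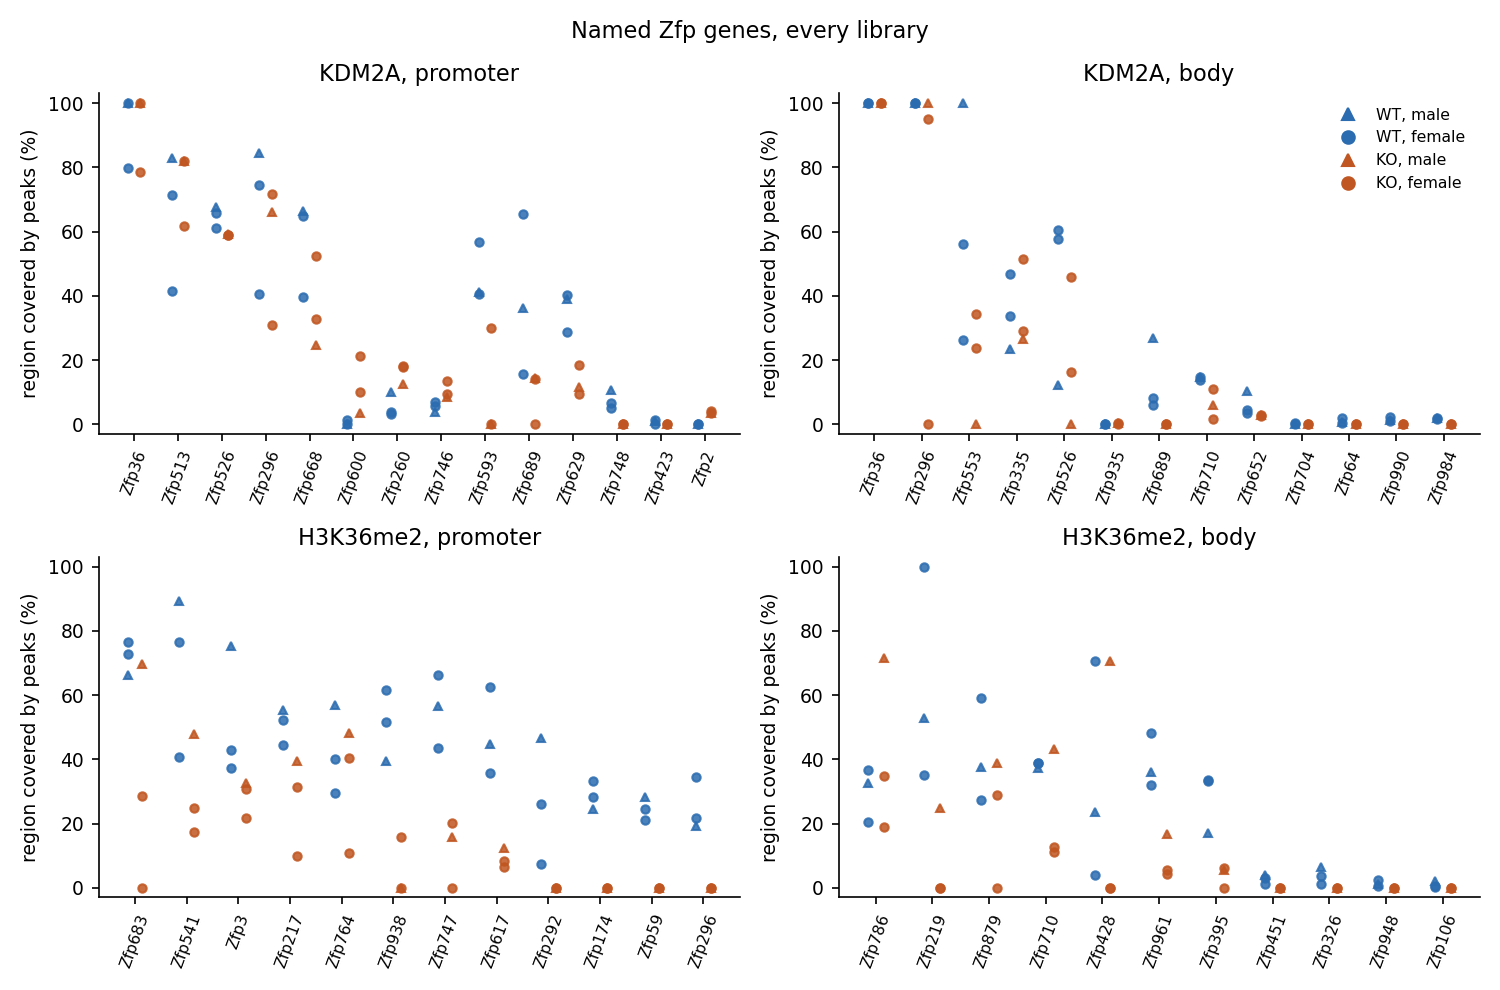
Each point is 1 library (triangles male, circles female; WT and KO in separate colours), showing the percent of the promoter or body covered by peaks (vertical axes) at members named by level or difference. At Zfp593 the KDM2A promoter values are 40.6 to 56.8% in WT and 0 to 29.99% in KO, and at Zfp938 the H3K36me2 promoter values are 39.4 to 61.6% and 0 to 15.7%.

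H3K36me2 peaks were on the promoters of a similar share of members in WT and of fewer in the female KO libraries. WT libraries held such a peak at 50.4, 54.8 and 52.9% of the members and KO libraries at 44.4, 23.3 and 23.0%, or 52.7% ± 2.20 and 30.2% ± 12.3 (SD, n = 3 each). Every KO library lay below every WT library, with the male KO library nearer to WT than to the female KO libraries. Over all protein-coding genes the shares were 39.3, 40.6 and 41.4% in WT and 38.6, 16.1 and 17.7% in KO. The difference for the members was −22.5 percentage points, −29.5 without the male KO library and −4.38 with equal numbers of strongest peaks. Members exceeded all genes in each of the 6 libraries.

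In WT the excess over other genes was larger without an island than with one. Members without an island had an H3K36me2 promoter peak at 43.7, 49.6 and 43.0% in WT and 35.6, 16.3 and 18.5% in KO, and other genes without an island at 22.1, 23.9 and 23.7% and 24.2, 10.5 and 11.6%. With an island the members stood at 54.3, 57.8 and 58.7% in WT and 49.6, 27.4 and 25.7% in KO, and other genes at 50.9, 51.8 and 53.4% and 48.6, 19.8 and 21.8%. The order of the excess was the same in KO replicates 1 and 3 and the reverse in KO replicate 2, and it was not tested. The KRAB box made less difference here than for KDM2A, with 48.1, 54.2 and 52.8% of KRAB members and 53.7, 55.7 and 53.0% of the others in WT.

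H3K36me2 lay on many member promoters that lacked KDM2A. Among members without a KDM2A promoter peak in the library of the same number, 37.8, 39.0 and 37.6% had an H3K36me2 peak in WT and 35.9, 17.1 and 17.1% in KO, against 16.1, 19.9 and 19.6% and 23.5, 9.55 and 8.88% over all genes. Fewer members than genes in general were empty of both marks. No promoter peak of either antibody in any of the 12 lists was found for 52 members, 14.2%, against 31.99% of all genes. They comprised 35 KRAB members, Zfp57 among them, and 17 others, including Zfp42, Zfp462, Zfp503, Zfp521, Zfp536 and Zfp711. Peaks of both antibodies in all 12 lists were found at 9 members, 2.47% against 3.06% of all genes: Zfp3, Zfp106, Zfp217, Zfp326, Zfp362, Zfp523, Zfp617, Zfp764 and Zfp771.

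The members with the highest H3K36me2 promoter coverage were Zfp683, Zfp541, Zfp3, Zfp217 and Zfp764. Zfp683, which encodes Hobit, a relative of Blimp-1 in tissue-resident lymphocytes, had 66.2, 76.6 and 72.7% in WT and 69.6, 0 and 28.7% in KO. Zfp541, a germ cell gene, had 89.2, 76.4 and 40.7% in WT and 47.7, 17.5 and 24.9% in KO, and no KDM2A promoter peak in any library. Zfp217, a corepressor amplified in tumours, had 55.4, 52.2 and 44.5% in WT and 39.4, 9.84 and 31.3% in KO. The genotypes overlapped at Zfp683 and Zfp541 and were separate at Zfp217, whose limma adjusted p = 0.372.

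In the genotype comparison of H3K36me2 promoter coverage limma called 0% of 10120 genes. At an unadjusted p under 0.05 there were 1599 genes, 15.8%, and 40 of 240 members tested, 16.7%, all lower in KO. These counts rose to 2505 genes and 52 members in the female libraries alone and to 1847 and 50 without WT replicate 1, and were 1913 and 33 without KO replicate 1. They fell to 624 genes and 19 members without KO replicate 2, to 613 and 20 without KO replicate 3, to 478 and 8 with equal numbers of strongest peaks, and to 394 and 12 relative to the library mean, where 2 of the 12 were higher. The median difference was −6.90 percentage points over the members and −7.73 over all genes, and the lowest adjusted p of a member was 0.268. Every KO library lay below every WT library at 54 members, 14.8% beside 11.1% of all genes, and above at 0 members beside 0.137%. A peak in the 3 WT libraries alone was found at 13 members, 3.56% beside 2.12%, and in the 3 KO libraries alone at 0 beside 0.0228%. An H3K36me2 promoter peak was present in all 6 libraries at 22 members, 6.03% beside 6.68%, and in none at 89, 24.4% beside 42.9%.

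Among members whose genotypes did not overlap, the 3 largest lower values in KO were at KRAB members. Zfp938 (chr10:82224850-82241280) had 39.4, 51.6 and 61.6% in WT and 0, 0 and 15.7% in KO, a difference of −45.6 ± 12.3 percentage points (SE, limma adjusted p = 0.268). Zfp747, whose promoter window holds 52.1% repeated 32-mers, had 56.7, 66.3 and 43.6% in WT and 15.9, 0 and 20.1% in KO. Zfp617 had 44.8, 62.4 and 35.6% in WT and 12.4, 8.20 and 6.46% in KO, and shares its promoter window with Zfp882. At Zfp938 the male libraries, 1 per genotype, had 39.4% in WT and 0% in KO.

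Of the 13 members with an H3K36me2 promoter peak in WT alone, those with the highest fold were Zfp292, Zfp174, Zfp59 and Zfp296. Zfp174 had 24.6, 33.3 and 28.2% in WT, Zfp59 had 28.2, 24.4 and 21.04%, and Zfp296, a gene of pluripotent cells, had 19.2, 34.5 and 21.8%. Zfp292 had 46.7, 7.27 and 26.2%. Zfp296 kept its KDM2A promoter peak in all 3 KO libraries, at 66.1, 30.8 and 71.8%, beside 84.4, 74.6 and 40.6% in WT. The remaining 9 were Zfp28, Zfp414, Zfp442, Zfp566, Zfp647, Zfp719, Zfp760, Zfp866 and Zfp950.

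Gene bodies carried less KDM2A than promoters. A KDM2A peak in the body was found in 21.3, 16.1 and 19.7% of members in WT and 7.48, 9.42 and 13.6% in KO, against 28.98, 22.9 and 25.9% and 15.4, 14.4 and 20.7% of all genes. The libraries did not overlap between genotypes, but with equal numbers of strongest peaks the difference of −8.86 percentage points became −1.02. limma called 0% of 3357 genes, with 249 at an unadjusted p under 0.05 and 0 of the 42 members tested. The unadjusted counts were 459 genes and 6 of 45 members without WT replicate 2, 323 and 4 of 38 without WT replicate 3, and 107 and 0 of 46 without KO replicate 1, all 6 and all 4 members lower in KO. In the adjusted test, without KO replicate 3, limma called 6 genes, none a member. Every KO library lay above every WT library at 1 member beside 0.154% of all genes and below at 9 beside 4.38%. The 3 WT libraries alone had a peak at 5 members beside 1.27%, the 3 KO libraries alone at 1 beside 0.0717%, all 6 libraries at 6 beside 5.36%, and no library at 207 beside 51.9%.

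Few bodies were covered widely. A body here is only what lies outside the promoter windows, so a promoter peak can reach into it. The mean fold at Zfp36 was 4.37 in both regions. After Zfp36 came Zfp296 with 100% in each WT library and 100, 0 and 95.0% in KO, Zfp553 with a range of 0 to 100% and Zfp335 with a mean of 35.2% over 6 libraries. Zfp689, with 26.9, 6.01 and 8.17% in WT and no body peak in KO, was below WT in each KO library at both promoter and body, and neither difference passed the test (limma adjusted p = 0.592 and 0.5001). Zfp710 had 14.7, 14.8 and 13.6% in WT and 5.85, 1.76 and 10.9% in KO. The 1 member with body peaks in KO alone, Zfp935, had at most 0.367% coverage.

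A larger share of the bases in finger array exons than in the rest of the bodies lay under a KDM2A peak, and few members carried it. Over 314 members with an array, KDM2A peaks covered 3.44, 3.49 and 3.59% of the array bases in WT and 1.35, 1.22 and 2.28% in KO, and 0.908, 0.577 and 0.679% and 0.200, 0.196 and 0.456% of the rest of the body. A KDM2A peak touched the array of 26, 17 and 21 of the 314 members in WT and 9, 7 and 14 in KO. H3K36me2 was distributed the other way in all 6 libraries, with 1.01, 1.95 and 1.75% of array bases in WT and 2.29, 0.0440 and 0.255% in KO, and 4.15, 6.43 and 5.85% and 3.85, 1.67 and 1.17% of the rest.

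H3K36me2 in bodies was found for 35.7, 39.9 and 43.8% of members in WT and 40.7, 19.4 and 18.8% in KO, against 36.3, 39.1 and 38.6% and 39.4, 20.4 and 22.3% of all genes. The male KO library lay within the range of WT and the female KO libraries below it. limma called 0% of 6651 genes, with 1349 at an unadjusted p under 0.05 and 19 of 143 members, all 19 lower in KO. The unadjusted counts were 328 genes and 6 members without KO replicate 2, 339 and 6 without KO replicate 3, 2363 and 26 without the male KO library, and 1656 and 34 without WT replicate 1. Relative to the library mean 9 of 138 members, 6.52%, were at an unadjusted p under 0.05, 2 of them higher, beside 338 of 6406 genes, 5.28%. None was called there. The difference in the share of members with a body peak was −13.5 percentage points and −20.7 without the male KO library. With the 4 female libraries alone, 17 of 134 members were called lower in KO beside 19.3% of the 6288 genes tested, and without the male KO library alone 6 genes were called, none a member. Every KO library lay below every WT library at 37 members, 10.2% beside 11.8%, and above at 0 beside 0.0512%. The 3 WT libraries alone had a peak at 4 members beside 1.05%, the 3 KO libraries alone at 0 beside 0.0154%, all 6 at 33 beside 14.6%, and none at 138 beside 47.7%.

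Body H3K36me2 was highest at Zfp786, Zfp219, Zfp879, Zfp710 and Zfp428. Zfp710 showed the split between KO libraries, with 37.4, 38.8 and 38.8% in WT and 43.4, 12.7 and 11.0% in KO. Over the 6 libraries its difference was −15.9 ± 11.2 percentage points (SE, limma adjusted p = 0.347), and in the 2 against 2 female libraries it was −26.9 ± 4.03 percentage points (SE, limma adjusted p = 0.0482). Zfp219 had 52.8, 35.1 and 100% in WT and 24.8, 0 and 0% in KO, and Zfp961 had 36.1, 48.1 and 31.9% in WT and 16.6, 4.38 and 5.67% in KO. Zfp395 had 16.9, 33.2 and 33.5% in WT and 5.54, 0 and 6.25% in KO. These 3 were picked among members without overlap between genotypes, so all their KO libraries lay below WT by that choice. Each had a limma adjusted p = 0.244 over the 6 libraries. The fold of body H3K36me2 peaks over 33 members with a value in every library differed by a median of 0.01 on the log2 scale, beside 0.00 over 2843 genes. limma called 0% of them, with 136 genes and 2 members at an unadjusted p under 0.05, Zfp608 at −0.21 ± 0.06 and Zfp697 at −0.14 ± 0.06 (SE). Without KO replicate 2 these counts were 168 genes and 4 members, 3 of them higher. Without KO replicate 1 they were 178 and 3, 2 of them higher.

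Clusters differed widely in KDM2A. In the chromosome 7 cluster from Zfp553 to Zfp646 (chr7:127233061-127885996) 10, 10 and 10 of 10 promoters had a KDM2A peak in WT and 10, 9 and 10 in KO, with a mean coverage of 36.2% over 6 libraries. Zfp646 and Zfp668 there had 6 KDM2A peaks in common over the 6 lists and are not independent. In the 19-member KRAB cluster of chromosome 13 (chr13:67038596-67827002) 10, 6 and 8 promoters had one in WT and 1, 6 and 8 in KO, so only the male KO library was low. H3K36me2 was on 13, 13 and 15 of these promoters in WT and 11, 12 and 6 in KO. In the 4-member cluster on chromosome 8 from Zfp709 to Zfp961 it was on 4, 4 and 4 in WT and 4, 4 and 3 in KO.

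In the chromosome 11 cluster of Zfp879, Zfp454 and Zfp2 no WT library had a KDM2A promoter peak, and 1, 2 and 2 promoters had one in KO. The chromosome 2 cluster of Zfp968, Zfp965, Zfp969 and Zfp966 had no promoter peak in any list. All sampled 32-mers of its median promoter occur elsewhere in the genome, as the printed copies show. The part of repeated sequence in the lack of peaks was not tested. Over all members the median share of repeated 32-mers in the promoter was 6.75%, against 4.77% over all genes, and 39 members were over 50%. These 39 had a KDM2A promoter peak in 10.3, 5.13 and 17.9% in WT and 5.13, 17.9 and 15.4% in KO. The other 326 had one in 64.4, 61.0 and 56.7% in WT and 46.3, 50.6 and 59.8% in KO.

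**Figure D5:**
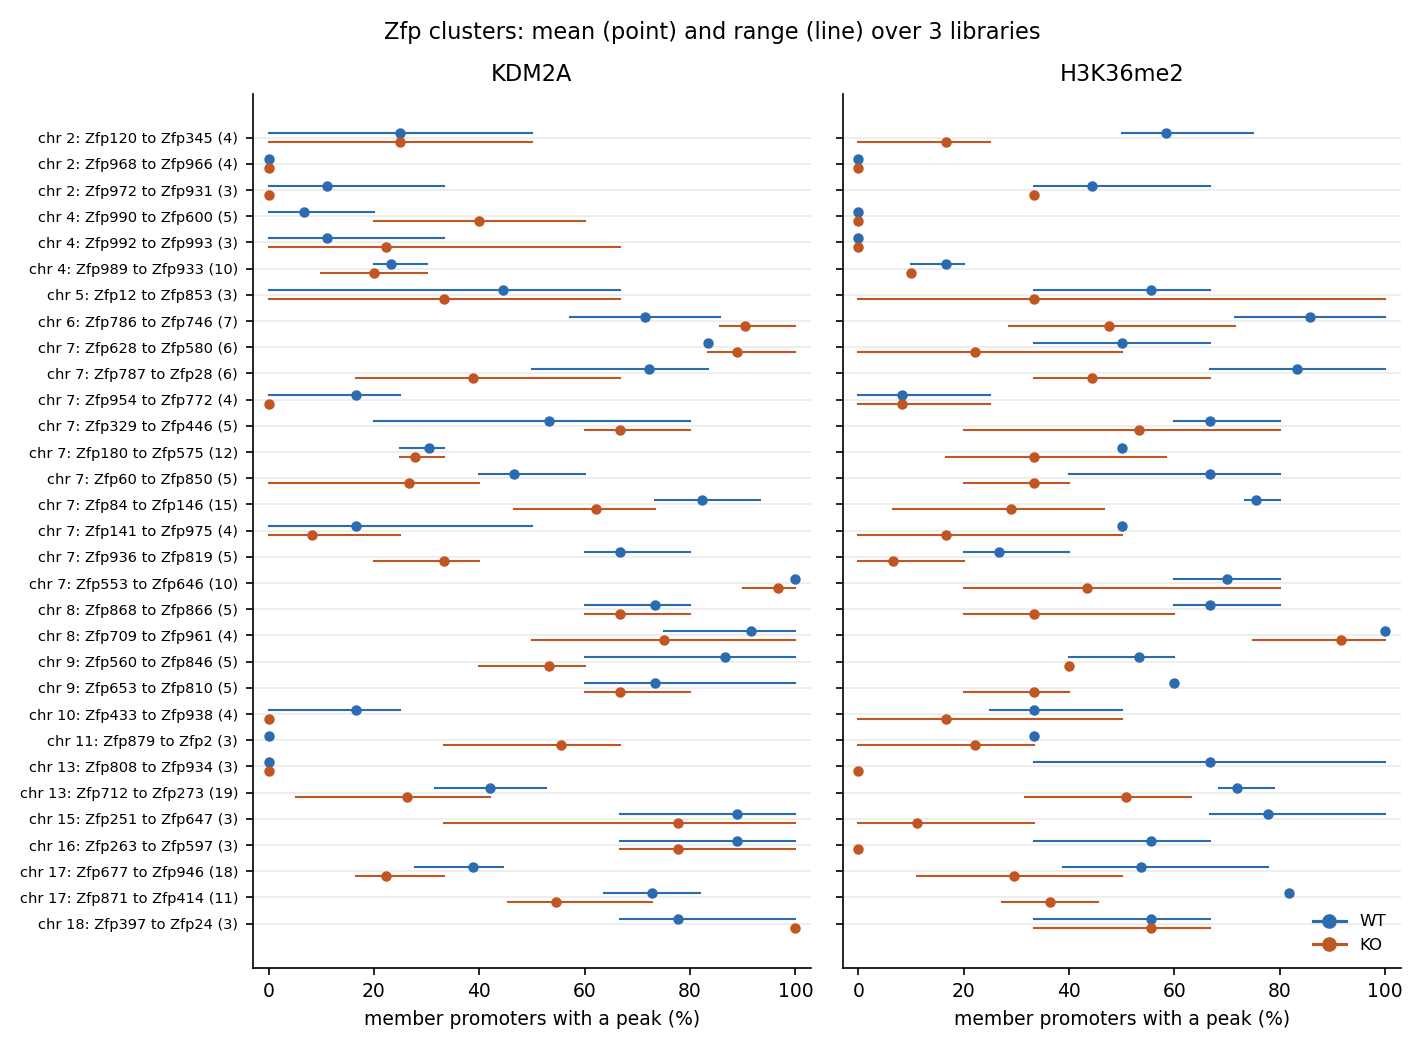
Each row is a cluster of at least 3 members (number in brackets), with the mean (point) and range (line) over 3 libraries of the share of its promoters with a peak (%), for each antibody and genotype. The chromosome 7 cluster from Zfp553 to Zfp646 has KDM2A on 9 or 10 of 10 promoters in all 6 libraries, and the chromosome 2 cluster from Zfp968 to Zfp966 has 0 of 4 for both antibodies.

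The partners of KRAB zinc fingers were read from a list of 21 genes of the KAP1 corepressor and heterochromatin machinery. A KDM2A promoter peak was present in all 6 libraries at 16 of them and none of the 21 was without one in every library. The KO mean was lower at 17 and higher at 4, and 0 of the 19 tested passed limma. Over all genes with a KDM2A promoter peak in any library, 73.9% had a lower KO mean, beside 81.0% of the partners, so the direction was general. Trim28, which encodes KAP1, had 35.3, 37.3 and 19.9% in WT and 15.2, 6.61 and 19.9% in KO (limma adjusted p = 0.592). Ehmt2, an H3K9 methyltransferase, had 65.4, 54.8 and 43.9% in WT and 19.03, 27.0 and 31.3% in KO (limma adjusted p = 0.534). H3K36me2 promoter coverage was lower in KO at 17 of the 21 and higher at 2, and 0 of the 14 tested passed limma. Of genes with such a peak in any library, 85.2% were lower in KO over all genes and 89.5% among the partners.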

How the data were processed

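Peaks were analysed in 12 ChIP-seq libraries, 3 per genotype and antibody. Reads had been mapped by the authors (BWA, GRCm38) and each library's broad peaks called by MACS2 over its input, without pooling. These steps were run within the nf-core/chipseq pipeline, and bedtools is also named. The deposited peak lists give for each peak a fold enrichment (ratio over background), a −log10 p-value and −log10 q-value from the authors' caller, and a display score, which was not used. No read counts are given, so precision could not be set by depth.

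Coverage was the percent of a region under peaks, and a gene had a peak where they overlapped by at least 1 bp. The tools were pandas 2.3.3, numpy 2.4.6 and matplotlib 3.10.9 under Python 3.11.15. Genotypes were compared by limma 3.58.1 in R 4.3.3 on coverage (genes with a mean of at least 2%) or on log2 fold centred within each library (genes with a peak in all 6 libraries), with Benjamini-Hochberg adjustment over all genes tested at 0.05, and the procedure was tested on simulated data with 200 changed genes. Two-sided exact permutation tests compared single genes. The p-values measure only the spread between these libraries.

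KRAB boxes and C2H2 fingers were searched in annotated coding sequences translated from the genome, not in RefSeq proteins as had been planned. CpG islands were runs scoring 17 for CG and −1 for other bases, of at least 200 bp, at least 50% GC and an observed to expected ratio over 0.6. CG in sequence masked as repeats did not count, so a promoter in repeats could be classed as without an island. Repeated sequence was the share of 32-mers, 1 in 16 sampled, found elsewhere in the genome. Named members were the 5 of highest mean coverage per antibody and region, the 3 largest differences in each direction without overlap between genotypes, those with peaks in the 3 libraries of 1 genotype alone (the 4 of highest mean fold where over 8), and members with a known role. Other members named in the text were chosen after their values were seen. The members and lists were chosen with earlier results of these data known. Alternatives were equal numbers of strongest peaks, a −log10 q of at least 2, other windows and filters, coverage relative to the library mean, female libraries alone, a replicate block and leaving out each library.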

Additional observations from a re-analysis of the deposited data

How the results depend on the processing

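With equal numbers of strongest peaks the KO minus WT difference in the share of Zfp genes with a peak moved to 1.10 (KDM2A promoter), −1.02 (KDM2A body), −4.38 (H3K36me2 promoter) and −3.97 percentage points (H3K36me2 body), from −7.40, −8.86, −22.5 and −13.5. Mean coverage moved to −0.261 (KDM2A body), −2.14 (H3K36me2 promoter) and −1.14 (H3K36me2 body), from −1.08, −6.30 and −2.99. With a −log10 q of at least 2 the shares became −4.52 (KDM2A body), −4.66 and −3.79 (H3K36me2 promoter and body), and mean coverage −0.535, −0.935 and −0.204. Relative to the library mean, coverage differences were 0.211 and 0.0129 for KDM2A promoter and body and 0.576 and −0.290 for H3K36me2. In female libraries mean H3K36me2 coverage differed by −7.99 (promoter) and −4.41 (body), and the share with an H3K36me2 body peak by −22.7. Their KDM2A promoter difference was −2.74 in share and −1.43 in mean coverage, from −7.40 and −2.49, and equal numbers of peaks gave −1.40 in mean coverage. The cause was not tested.

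limma calls were 3, 5 and 2 for KDM2A body, H3K36me2 promoter and H3K36me2 body at a −log10 q of at least 2, and 1217 for H3K36me2 body in female libraries. Leaving out each library gave 0 to 6 calls for KDM2A body (1 without WT replicate 1, 6 without KO replicate 3) and 0 to 6 for H3K36me2 body (6 without KO replicate 1), no member among them. The same omissions moved the KDM2A promoter share difference between −10.9 and −4.34, the latter without KO replicate 1.

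With the replicate block limma called 0 genes in all 6 fits, with 832, 140, 308, 1419, 691 and 132 genes at an unadjusted p under 0.05 for KDM2A promoter, body and promoter fold and H3K36me2 promoter, body and body fold. Same-numbered libraries correlated at −0.042 to 0.054. Whether the numbers pair the samples cannot be told from values this low, and replicate 1 was male in every group.

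Of 1550 alternative values for 155 values of named members, 1421 moved by less than the spread between libraries, 129 by more, and 94 had the opposite sign.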
